A study of Mus musculus with 10 samples.

Results

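In gastrocnemius muscle of 13-mo old D257A mice, 9 genes near Polg on mouse chromosome 7 had signals that differed from those of WT mice. Igf1r, Arrdc4, Fam174b, Aen, Ngrn and Hddc3 were higher in D257A mice, and Alpk3, Homer2 and 3110040N11Rik were lower. The sizes ran from a 10.0-fold higher signal for Hddc3 to a signal of Alpk3 that was 4.23 times as high in WT as in D257A mice. The genes were chosen by 2 properties, that they lie around Polg, the gene that carries the D257A allele, and that their signals differed between the genotypes in these same mice. Their differences between D257A and WT are therefore given as a description, with no test. Of the 45101 probe sets of the array, 20 name 1 of these 9 genes and no other gene, and the 9 genes are among 11215 that were compared between the genotypes.

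Muscle RNA of 5 D257A and 5 WT males, separate animals, was hybridized to Affymetrix mouse arrays, with 1 mouse on each array. D257A mice (Polg D257A/D257A) were homozygous for a knock-in allele of Polg that encodes an mtDNA polymerase γ without proofreading, and WT mice were Polg+/+. The allele is present in all cells of the animal rather than in muscle alone. The line began on a mixed 129Sv, ICR and B6 background and was then crossed back to C57Bl/6J for a few generations. The tissue is labeled gastrocnemius, although the RNA protocol of the labels mentions cochlea. All 8 markers of skeletal muscle fibers were among the bright probe sets, and 5 of 7 cochlear markers, Tecta, Otoa, Slc26a5, Otof and Tmc1, fell below the filter on dim probe sets.

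Genes that lie close together on a chromosome are inherited together, so a knock-in allele travels with DNA of the strain in which it was made until recombination separates them. A probe set is a group of short probes against the 3′ part of a transcript, and a base difference between strains under a probe can alter its signal while the amount of transcript stays as it was. Probe sets at other places of the same gene give a second reading of that transcript. Which strain's DNA these mice carry beside Polg, and where in each transcript the probes lie, were not examined here, and their part in the differences was not tested. An effect of the D257A allele itself and one of DNA inherited with it cannot be told apart in this design.

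Each value below is a scaled signal, the deposited intensity multiplied by the factor that brings the trimmed mean of its array to 500. Values by mouse are listed for D257A mice 2-17M, 2-21M, 2-25M, 2-27M and 2-30M and then for WT mice 1-12M, 1-13M, 2-3M, 2-32M and 3-18M. Means are given ± SD (n = 5 each), and log2 differences are D257A minus WT with the standard error (SE) of limma. A probe set or gene was called at an adjusted p under 0.05 in limma over all probe sets tested. Among all 11215 genes, each represented by its brightest probe set, 7.23% were called, 3.71% higher and 3.52% lower in D257A mice. Of all called probe sets 49.3% were higher in D257A mice, a share that was 79.3% with arrays centered on their median and 29.4% without scaling. The 9 genes were called in this same comparison, which is part of how they were chosen, so nothing is read from their count beside that background.

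In the RefSeq order of protein-coding genes (assembly GRCm38.p6), 4 of the genes lie before Polg and 5 after it. Igf1r is 28 genes before Polg, Arrdc4 25, Fam174b 19 and Aen 8. Ngrn is 18 genes after Polg, Hddc3 23, Alpk3 35, Homer2 44 and 3110040N11Rik 46. All 4 genes on the first side were higher in D257A mice, whereas the 5 on the other side hold 2 that were higher and 3 that were lower.

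**Figure D1:**
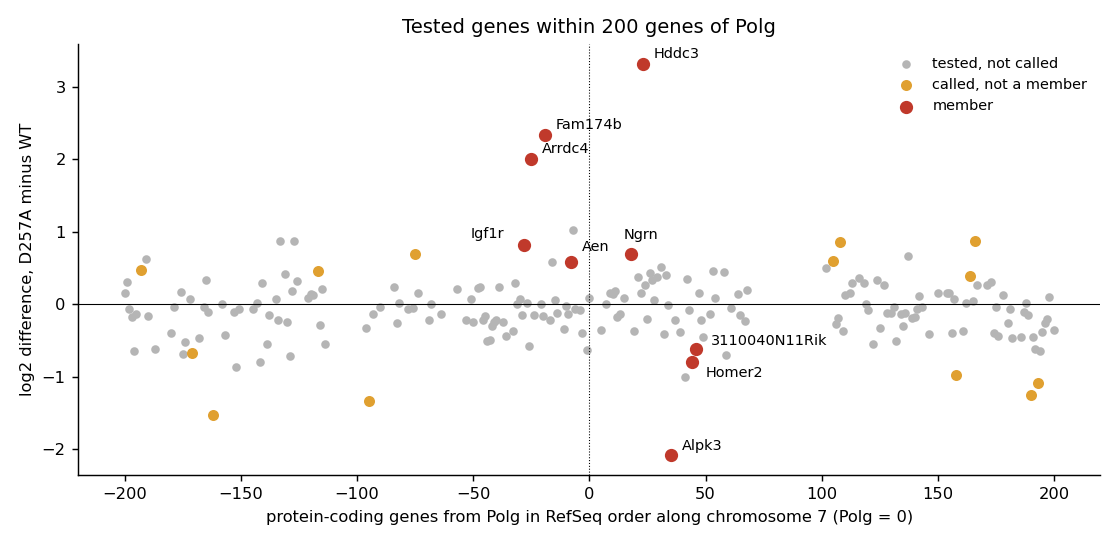
Log2 difference, D257A minus WT, of each tested gene within 200 protein-coding genes of Polg (y axis) by its place in the RefSeq gene order along chromosome 7 (x axis, Polg at 0). Red points are the 9 genes described here, orange points are other called genes and gray points are genes not called; Hddc3 at 3.32, Fam174b at 2.34, Arrdc4 at 2.01 and Alpk3 at -2.08 stand beyond every other gene shown.

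The 4 genes with a log2 difference of at least 2 in either direction are the ones whose promoters are printed here, 250 bases upstream of the annotated start and read in the direction of the gene, from RefSeq on GRCm38.p6. The positions are chr7:80342887-80343136 (+ strand) for Hddc3, chr7:73740057-73740306 (+ strand) for Fam174b, chr7:68749239-68749488 (- strand) for Arrdc4 and chr7:81057350-81057599 (+ strand) for Alpk3. Capitals mark matches on either strand to 1 of 4 motifs. They are the E-box, with the letters CACGTG, the GC box, with the letters GGGCGG, the binding motif of the nuclear factor Y complex, with the letters CCAAT, and the TATA box, with the letters TATAAA.
Hddc3: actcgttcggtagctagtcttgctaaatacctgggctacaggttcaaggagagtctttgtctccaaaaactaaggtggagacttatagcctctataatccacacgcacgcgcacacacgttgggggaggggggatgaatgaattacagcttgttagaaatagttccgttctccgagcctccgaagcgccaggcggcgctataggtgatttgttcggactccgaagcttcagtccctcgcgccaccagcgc
Fam174b: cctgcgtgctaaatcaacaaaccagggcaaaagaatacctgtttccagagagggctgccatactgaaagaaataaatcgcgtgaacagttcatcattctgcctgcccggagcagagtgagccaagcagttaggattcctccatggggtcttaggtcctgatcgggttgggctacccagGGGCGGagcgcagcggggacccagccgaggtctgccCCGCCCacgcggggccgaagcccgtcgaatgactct
Arrdc4: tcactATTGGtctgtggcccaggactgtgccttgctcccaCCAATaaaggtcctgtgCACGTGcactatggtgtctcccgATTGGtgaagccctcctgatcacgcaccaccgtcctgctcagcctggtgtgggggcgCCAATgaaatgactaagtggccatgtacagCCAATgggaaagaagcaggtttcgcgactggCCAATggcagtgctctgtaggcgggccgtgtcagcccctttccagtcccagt
Alpk3: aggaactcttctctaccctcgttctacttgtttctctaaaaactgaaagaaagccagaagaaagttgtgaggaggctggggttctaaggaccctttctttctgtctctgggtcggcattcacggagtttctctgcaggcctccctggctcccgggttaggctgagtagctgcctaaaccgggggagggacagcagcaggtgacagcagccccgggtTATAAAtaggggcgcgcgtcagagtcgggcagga

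The upstream sequences of these 4 genes have no motif of the search in common. Arrdc4 had 6 matches to CCAAT and a single match to CACGTG, Fam174b had 2 to GGGCGG, Alpk3 had 1 to TATAAA, and Hddc3 had none of the 4 motifs in this window. Of 27025 promoters of the same length, 6.05% held CACGTG, 32.9% GGGCGG, 34.5% CCAAT and 13.0% TATAAA. All 9 genes have a promoter in that table. GGGCGG was found in 5 of them (Igf1r, Fam174b, Ngrn, Homer2 and 3110040N11Rik), CCAAT in 3 (Arrdc4, Aen and 3110040N11Rik), CACGTG in Arrdc4 and TATAAA in Alpk3. These are matches of letters and not sites of binding.

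Polg itself, the mtDNA polymerase whose proofreading domain is altered, was not called. The knock-in changes 1 residue and leaves the transcript in place, so its probe sets do not check the labels. Its brightest probe set, 1423272_at, read 764, 793, 914, 797 and 1022 in D257A mice, against 839, 1046, 803, 805 and 573 in WT mice. The genotypes overlapped, with means of 858 ± 108 in D257A and 813 ± 168 in WT and a log2 difference of 0.09 (SE 0.16, limma adjusted p = 0.768). Without WT mouse 3-18M, which had the lowest signal, the difference was -0.03. The remaining Polg probe sets, 1423273_at with a log2 difference of 0.23 (SE 0.16) and 1437564_at with 0.85 (SE 0.37), also overlapped between genotypes and were not called.

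Igf1r, the receptor tyrosine kinase that passes the growth signal of insulin-like growth factor 1 into the muscle fiber, was higher in D257A mice at 1 of its 5 probe sets. Probe set 1452982_at read 1346, 1069, 1296, 885 and 1399 in D257A mice, against 571, 1072, 696, 578 and 548 in WT mice. WT mouse 1-13M lay within the D257A range, and the remaining WT mice lay below it. Means were 1199 ± 216 in D257A and 693 ± 219 in WT, a log2 difference of 0.82 (SE 0.19). With 1 mouse left out it ran from 0.75 to 0.99, the highest being without WT mouse 1-13M, and it lost its call without D257A mouse 2-17M, 2-25M or 2-30M and without WT mouse 1-12M or 2-32M. The other probe sets of Igf1r did not show this difference. They had log2 differences of -0.14 (SE 0.22) at 1426565_at, 0.34 (SE 0.25) at 1428967_at, 0.12 (SE 0.28) at 1446303_at and -0.78 (SE 0.35) at 1452108_at, which was too dim to be tested. Probe set 1428967_at was designed on the same transcript record as 1452982_at. Its signals were 176, 108, 107, 153 and 147 in D257A mice, against 147, 144, 91.3, 104 and 69.2 in WT mice, and these ranges overlapped.

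Arrdc4, an alpha-arrestin that serves as an adaptor for ubiquitin ligases of the Nedd4 family and is a relative of the glucose uptake inhibitor Txnip, was higher in every D257A mouse at both of its probe sets. Signals at 1424759_at were 1390, 916, 872, 1037 and 736 in D257A mice, against 199, 336, 197, 245 and 248 in WT mice. The lowest D257A mouse, 2-30M, was above the highest WT mouse, 1-13M. The means of 990 ± 248 in D257A and 245 ± 56.4 in WT gave a log2 difference of 2.01 (SE 0.19), or 4.02-fold. At 1426818_at the signals were 520, 389, 373, 345 and 360 in D257A mice, against 178, 253, 243, 221 and 235 in WT mice. These did not overlap either, but the log2 difference was 0.81 (SE 0.16), or 1.75-fold, which is 1.20 less on the log2 scale than at the first probe set.

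Fam174b, a small membrane protein whose work in muscle is not well known, has 1 probe set, 1434273_at. It read 984, 611, 623, 577 and 429 in D257A mice, against 106, 151, 117, 136 and 108 in WT mice. Every D257A mouse was far above every WT mouse, and mouse 2-17M was the highest. Means were 645 ± 205 in D257A and 124 ± 19.6 in WT, a log2 difference of 2.34 (SE 0.20), or 5.07-fold. With 1 probe set there is no second reading of this transcript.

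Aen, a nuclease induced by p53 that takes part in the breakdown of DNA during apoptosis, is the gene nearest to Polg among the 9. Probe set 1423957_at read 2466, 2035, 1925, 1984 and 1875 in D257A mice, against 1401, 1604, 1376, 1270 and 1229 in WT mice. The genotypes did not overlap, and the difference was small in size, with means of 2057 ± 236 in D257A and 1376 ± 146 in WT and a log2 difference of 0.58 (SE 0.12), or 1.49-fold. A second probe set, 1437373_at, had 285, 275, 221, 266 and 231 in D257A mice, against 115, 149, 215, 152 and 159 in WT mice. It also separated the genotypes, by 6 units at its closest pair, with a log2 difference of 0.72 (SE 0.18). The third, 1450506_a_at, did not separate them. It read 796, 828, 785, 897 and 653 in D257A mice, against 812, 929, 673, 771 and 588 in WT mice, with a log2 difference of 0.08 (SE 0.14). The fourth, 1451186_at, shares its transcript record with 1423957_at, was too dim to be tested and had a log2 difference of 0.01 (SE 0.34).

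Ngrn, or neugrin, a mitochondrial protein that binds the 16S ribosomal RNA and is needed for the assembly of the mitochondrial ribosome, has 1 probe set, 1416709_a_at. Its signals were 1920, 1801, 1981, 1710 and 2223 in D257A mice, against 1064, 1577, 1257, 1066 and 1041 in WT mice. All D257A mice were above all WT mice, among which 1-13M was the highest. Means were 1927 ± 196 in D257A and 1201 ± 228 in WT, a log2 difference of 0.70 (SE 0.14), or 1.62-fold.

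Hddc3, the metazoan relative of the bacterial enzyme SpoT and a phosphatase of NADPH in human cells, had the largest log2 difference of the 11215 genes in either direction, and also the largest relative to its SE. Probe set 1428692_at read 1858, 1519, 1287, 1725 and 1118 in D257A mice, against 136, 126, 170, 132 and 183 in WT mice. No WT mouse approached the D257A range. The means of 1501 ± 305 in D257A and 149 ± 25.2 in WT gave a log2 difference of 3.32 (SE 0.17), or 10.0-fold. The second probe set, 1452875_at, was designed on the same transcript record and did not separate the genotypes. It read 117, 113, 115, 64.3 and 112 in D257A mice, against 119, 90.2, 61.1, 76.6 and 118 in WT mice, with means of 104 ± 22.4 in D257A and 93.0 ± 25.4 in WT. Its log2 difference was 0.18 (SE 0.27), 3.14 less than at the first probe set.

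Alpk3, an alpha kinase of heart and skeletal muscle that sits at the M-band of the sarcomere and whose loss causes cardiomyopathy in humans, was lower in every D257A mouse. Its single probe set, 1449573_at, read 1555, 1931, 1891, 2162 and 1493 in D257A mice, against 8786, 6045, 8046, 8864 and 6587 in WT mice. The genotypes were wide apart, and the lowest WT mouse was 1-13M. Means were 1806 ± 278 in D257A and 7666 ± 1287 in WT, a log2 difference of -2.08 (SE 0.14). Relative to its SE this was the second largest difference of the 11215 genes.

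Homer2, a scaffold protein that ties calcium channels and receptors of the cell membrane to those of internal calcium stores, was lower in D257A mice at both probe sets that were bright enough to be tested. At 1424367_a_at the signals were 893, 1279, 1100, 1039 and 905 in D257A mice, against 2220, 1273, 1996, 1817 and 1836 in WT mice. WT mouse 1-13M was just below the highest D257A mouse, 2-21M, and the remaining WT mice were above all D257A mice. Means were 1043 ± 159 in D257A and 1829 ± 350 in WT, a log2 difference of -0.80 (SE 0.16). With 1 mouse left out it ran from -0.92, without WT mouse 1-13M, to -0.72, and it remained called. Probe set 1457671_at read 393, 709, 606, 628 and 506 in D257A mice, against 1459, 673, 1133, 1261 and 1601 in WT mice. The overlap was again due to mice 2-21M and 1-13M, and the log2 difference of -1.08 (SE 0.22) was -1.28 without WT mouse 1-13M. The dim probe set 1436110_at had a log2 difference of -1.06 (SE 0.61).

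3110040N11Rik, known by the name of its RIKEN clone, lies 2 genes beyond Homer2 and has 1 probe set, 1450972_at. It read 305, 238, 278, 221 and 250 in D257A mice, against 423, 305, 411, 412 and 422 in WT mice. The highest D257A mouse, 2-17M, and the lowest WT mouse, 1-13M, were at the same signal, and the other 4 WT mice were close to one another. Means were 258 ± 33.4 in D257A and 395 ± 50.5 in WT, a log2 difference of -0.61 (SE 0.15). With 1 mouse left out it ran from -0.70, without WT mouse 1-13M, to -0.56, and it lost its call without D257A mouse 2-21M, 2-27M or 2-30M and without WT mouse 1-12M, 2-3M or 2-32M.

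**Figure D2:**
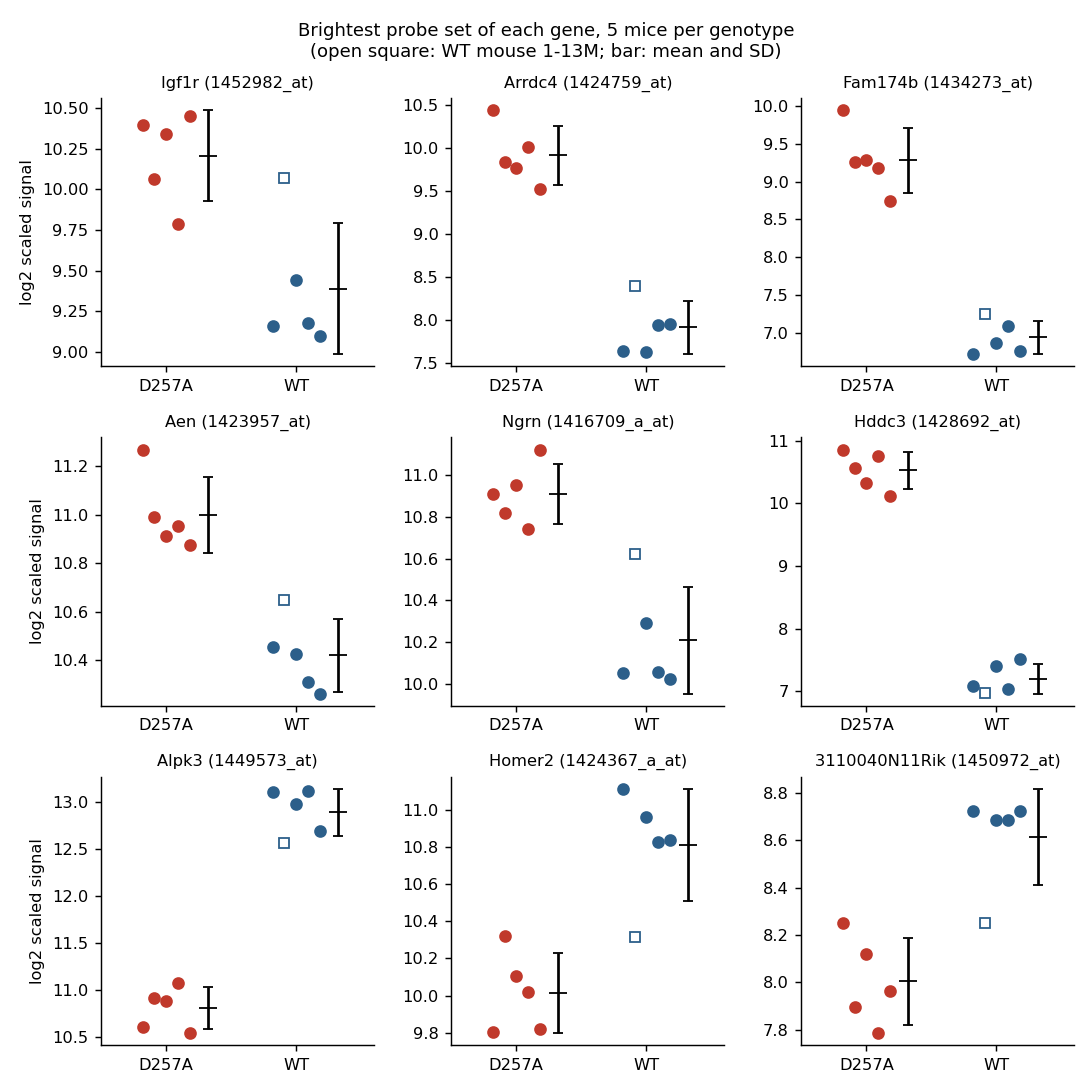
Log2 scaled signal (y axis) of the brightest probe set of each gene in the 5 D257A mice (red) and the 5 WT mice (blue), with the mean and SD beside the points; the open square is WT mouse 1-13M and the y axes differ between panels. D257A and WT mice did not overlap for 6 genes, and for Igf1r, Homer2 and 3110040N11Rik the overlap came from WT mouse 1-13M.

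At their brightest probe set, 6 of the 9 genes had no overlap between D257A and WT mice, where 7.4% of all tested genes had none. Of the 17 tested probe sets of the 9 genes, 12 were called, 8 higher and 4 lower in D257A mice, where 7.38% of all tested probe sets were called, 3.64% higher and 3.74% lower. Genotypes did not overlap at 8 of the 17, where this held for 7.71% of all tested probe sets, 3.94% with D257A higher and 3.77% with D257A lower. The members just inside the threshold were Igf1r at 0.82 (SE 0.19) and 3110040N11Rik at -0.61 (SE 0.15). Just outside it, in the same stretch of chromosome, were Iqgap1 with a log2 difference of 0.38 (SE 0.11), BC048679 with -1.0 (SE 0.30) and Furin with 0.43 (SE 0.13). Iqgap1, a scaffold of the actin cytoskeleton, averaged 1289 ± 105 in D257A and 989 ± 81.1 in WT mice, and Furin, a protease that matures proproteins, averaged 1018 ± 98.1 in D257A and 760 ± 110 in WT mice.

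The size of the differences did not go steadily with the distance from Polg in gene order. The 4 largest lay 19 to 35 genes away, and Aen, the nearest of the 9, had the smallest. By sign, the 6 higher genes lay 8 to 28 genes away, and the 3 lower ones, all after Polg, 35 to 46 genes away. This split among 9 chosen genes was not tested. From Igf1r to 3110040N11Rik, RefSeq lists 75 protein-coding genes, Polg included, of which 53 were tested. The 44 that are not among the 9 were all short of the threshold, as the choice of the 9 requires, with 21 log2 differences above 0 and 23 below, and the largest, that of Isg20, was 1.03. Between Aen and Ngrn, on both sides of Polg, lie 13 of these tested genes, Polg left out. The median absolute log2 difference was 0.19 within 25 genes of Polg, 0.25 within 50, 0.23 within 100 and 0.24 within 200, against 0.20 among genes of other chromosomes, the chosen genes being part of each of the first 4 values. Without WT mouse 1-13M, 15 genes of the stretch were called, and the added ones were Slco3a1 at -0.36, Mrpl46 at -0.44, Furin at 0.50, Iqgap1 at 0.34, Sec11a at 0.44 and BC048679 at -0.75. This rise was not confined to the stretch, since calls over all 22518 tested probe sets went from 1662 to 3428 without that mouse.

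Farther out, the share of called genes was 7.41% (2 of 27) at 51 to 100 genes from Polg, 9.57% (11 of 115) at 101 to 200 genes, 6.6% over all of chromosome 7 outside the stretch and 7.34% on other chromosomes. No gene at 51 to 200 genes from Polg had a log2 difference of at least 2 in either direction. Of the 21 such genes in the whole data, 4 were among the 9, 1 was elsewhere on chromosome 7 and 15 were protein-coding genes of other chromosomes.

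The nearest tested genes on each side of the 9, which lie 1 to 3 genes away in RefSeq order, were not called, except that Homer2 and 3110040N11Rik are each other's nearest tested gene on 1 side. Within the stretch the choice of the 9 requires this, since they are all of its called genes, and nothing is read from it. The values of the neighbors are given as a description. Around Hddc3, the myosin chaperone Unc45a had a log2 difference of 0.15 (SE 0.19) and the Golgi mannosidase Man2a2 0.27 (SE 0.14). Beside Alpk3 these were -0.01 (SE 0.15) for Zfp592 and -0.22 (SE 0.13) for the phosphodiesterase Pde8a. The neighbors of Fam174b, the chromatin remodeler Chd2 and the transporter Slco3a1, were at -0.16 and -0.21, and those of Arrdc4, Fam169b and the nuclear receptor Nr2f2, at -0.57 and -0.14. The 4 largest differences were thus flanked by genes at -0.57 to 0.27. For Igf1r the neighbors were Synm, an intermediate filament protein, at -0.14 and Pgpep1l at 0.02. Det1 and the exonuclease Isg20 beside Aen were at -0.13 and 1.03 (SE 0.36, limma adjusted p = 0.104), Cib1 and Vps33b beside Ngrn at 0.09 and -0.37, and Whamm and Btbd1 around Homer2 and 3110040N11Rik at -0.08 and 0.15.

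In 3 of the 5 genes that have more than 1 tested probe set, not all of these were called. Arrdc4 and Homer2 were called at all tested probe sets, while Igf1r, Aen and Hddc3 had at least 1 tested probe set that was not called, and for Igf1r 1 tested probe set had the opposite sign. This was common on these arrays. Of 394 genes that were called at the brightest probe set and had another one tested, 68.5% had a probe set that was not called and 14.2% had one of opposite sign. The gap in log2 difference between the brightest and the most distant tested probe set of a gene had a median of 0.31 over these 394 genes. It was 3.14 for Hddc3, the largest of the 394, 1.20 for Arrdc4 (rank 11), 0.96 for Igf1r (rank 27), 0.50 for Aen (rank 124) and 0.28 for Homer2 (rank 208). Hddc3 and Igf1r each hold a pair of tested probe sets from a single transcript record, of which only the brightest was called. Several of the probe sets that were not called were dim, with a mean log2 signal over all mice of 6.58 at 1452875_at of Hddc3 and of 6.51 at 1446303_at, 6.91 at 1428967_at and 7.53 at 1426565_at of Igf1r, where the dimmest tested on the array was at 6.26. The part of low signal in these gaps and ranks was not tested. When the log2 signals of all probe sets of a gene were averaged, the log2 difference was 0.07 for Igf1r and 0.35 for Aen, neither of them called, 1.41 for Arrdc4, 1.75 for Hddc3 and -0.98 for Homer2.

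**Figure D3:**
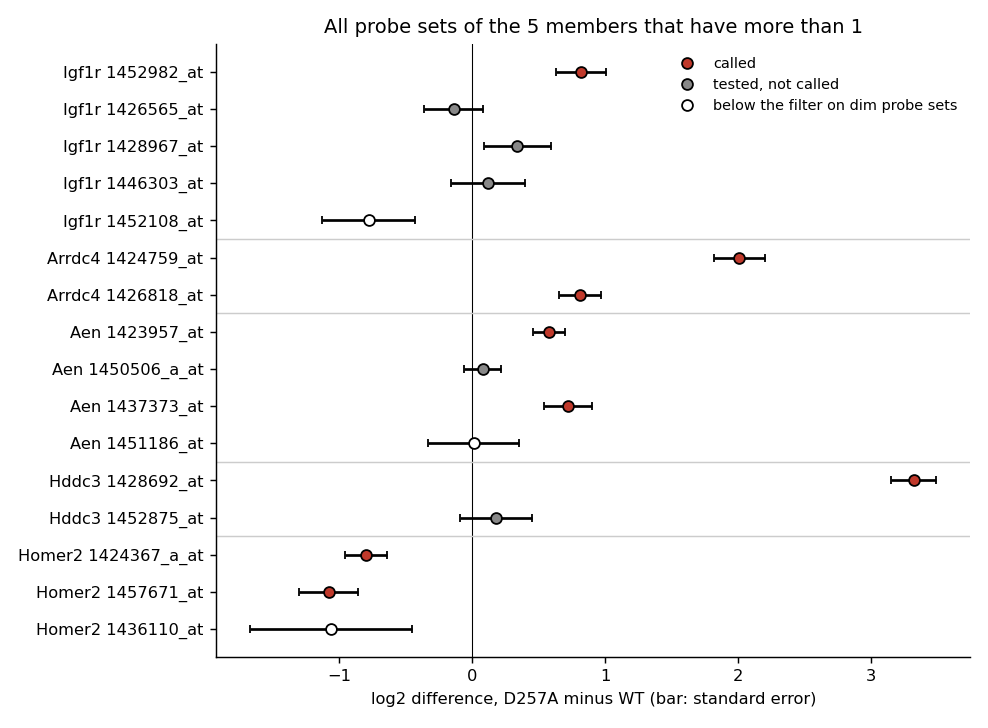
Log2 difference, D257A minus WT, with its standard error (x axis) for every probe set of the 5 genes that have more than 1 (rows); red points were called, gray points were tested and not called and open points were below the filter on dim probe sets. Probe sets of Hddc3 differed from each other by 3.14, those of the Homer2 rows by 0.28 between its called points.

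WT mouse 1-13M lay toward the D257A mice for most of the genes. With 0 set at the mean of the 4 remaining WT mice and 1 at the D257A mean, its position was 0.857 for Igf1r, 0.675 for Homer2, 0.646 for 3110040N11Rik, 0.645 for Ngrn and 0.447 for Aen. For the 4 genes with the largest differences it was nearer to the other WT mice, at 0.284 for Arrdc4, 0.188 for Alpk3, 0.158 for Fam174b and -0.088 for Hddc3. The position divides the shift of the mouse by the difference between the genotypes. The same shift therefore gives a smaller value where that difference is large, and nothing is read from this contrast between genes. The median position of WT mouse 1-13M over the 9 genes was 0.447, where the medians of the other WT mice ran from -0.174 to -0.0363 and no value of theirs was above 0.147. It was the WT mouse nearest to the D257A mice for 8 of the 9 genes, Hddc3 being the exception. The deposited array of this mouse also had the highest trimmed mean, 129, where the remaining 9 arrays had 93.4 to 116. Without this mouse, calls over all tested probe sets rose from 1662 to 3428, so its weight was not limited to these 9 genes. Its position at other genes is not given here.

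**Figure D4:**
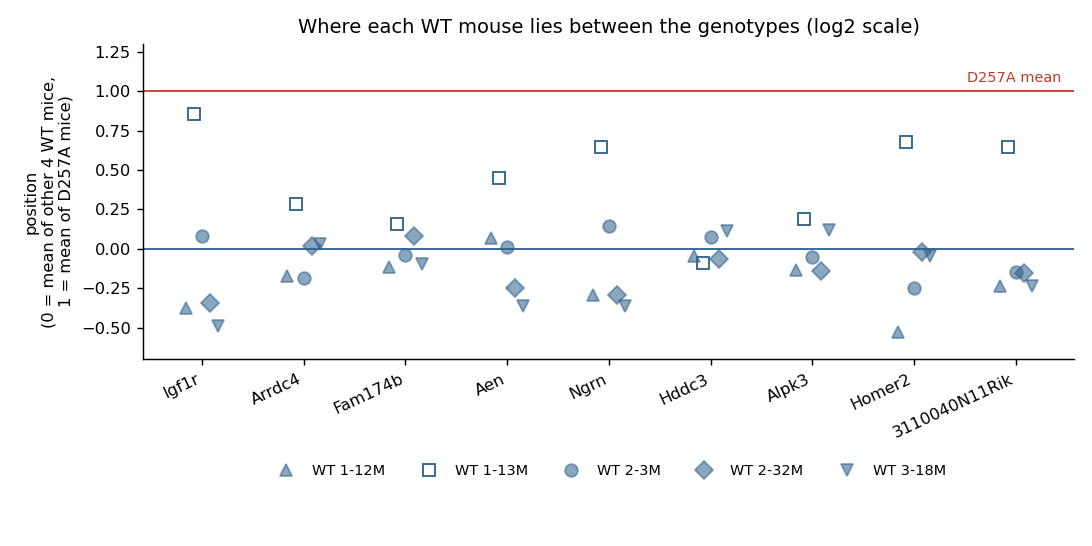
Position of each WT mouse (symbols) on the log2 scale between the mean of the other 4 WT mice, set at 0, and the D257A mean, set at 1 (y axis), at the brightest probe set of each gene (x axis). WT mouse 1-13M (open squares) is above the other WT mice for 8 genes, from 0.158 for Fam174b to 0.857 for Igf1r, and at -0.088 for Hddc3.

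Mouse numbers begin with 2 in all D257A mice and with 1, 1, 2, 2 and 3 in WT mice, and the labels do not explain this digit. WT mice 2-3M and 2-32M, which share it with the D257A mice, lay outside the D257A range for all 9 genes at the brightest probe set. The share of all tested genes for which this held is not given here, and 2 mice lie outside a range more readily than 5. With these alone as WT, the log2 differences were 0.90 for Igf1r, 2.14 for Arrdc4, 2.30 for Fam174b, 0.63 for Aen, 0.73 for Ngrn, 3.30 for Hddc3, -2.24 for Alpk3, -0.88 for Homer2 and -0.68 for 3110040N11Rik. Each had the sign that it had over all mice, which is no separate check, because the genes were chosen on these same mice. With the digit as a block, 5 of the 9 were called (Arrdc4, Fam174b, Aen, Hddc3 and Alpk3), and Igf1r, Ngrn, Homer2 and 3110040N11Rik lost their calls. Digits 1 and 3 occur in WT mice only, so the block fit takes its genotype difference from the mice numbered 2. Its log2 differences were the same as with those mice alone, a fit in which all 9 genes were called. The lost calls therefore do not show an effect of the digit on the differences. Over all 22518 tested probe sets, 562 were called with that block, against 1753 with the mice numbered 2 alone and 1662 with all mice and no block. With the digit as a block, the second probe set of Hddc3 was at 0.57 and 1426565_at of Igf1r at -0.03.

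Among the D257A mice, 6 of the 9 genes shared both their highest and their lowest mouse with another of the 9. How common these highest and lowest mice are among all tested genes is not given here, so nothing is read from this count. Arrdc4, Fam174b, Aen and Hddc3 were all highest in mouse 2-17M and lowest in mouse 2-30M. Igf1r and Ngrn were both highest in 2-30M and lowest in 2-27M among D257A mice, and both highest in 1-13M and lowest in 3-18M among WT mice. Alpk3 was highest in 2-27M and lowest in 2-30M, Homer2 highest in 2-21M and lowest in 2-17M, and 3110040N11Rik highest in 2-17M and lowest in 2-27M, pairs that no other of the 9 had. Over the 10 arrays, the gene whose brightest probe set was most like that of Arrdc4 was Fam174b, and the reverse held (Pearson r = 0.989). Likewise Igf1r and Ngrn were each other's most similar gene (r = 0.976), although they lie on opposite sides of Polg. These correlations hold the difference between genotypes and the arrays' shared signal scale within them.

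The most similar genes of the remaining ones lay outside the 9. They were the RNA helicase Ddx39b for Aen (r = 0.981), the RNA helicase Ddx1 for Hddc3 (r = 0.981), Pcp4l1 for Alpk3 (r = 0.992), the succinate dehydrogenase subunit Sdhb for Homer2 (r = 0.991) and 5031439G07Rik for 3110040N11Rik (r = 0.954). After subtraction of each genotype's mean, none of the 9 was most like another of the 9. The closest genes were then Tmem11 for Igf1r (r = 0.973), Dnajc7 for Arrdc4 (r = 0.941), 2310030G06Rik for Fam174b (r = 0.953), Ppp1r1a for Aen (r = 0.963), Yap1 for Ngrn (r = 0.977), Golt1b for Hddc3 (r = 0.944), Flad1 for Alpk3 (r = 0.978), Uqcr11, a subunit of complex III, for Homer2 (r = 0.981) and Yeats2 for 3110040N11Rik (r = 0.962). Each is the highest correlation with any of the other tested genes over 10 arrays.

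Paralogues and partners of the 9 genes were taken from 9 lists, of which 81 genes were tested. Of these 11 were called (13.6%), 8 higher and 3 lower in D257A mice, where 7.23% of all genes were. This count was unstable to single mice: it was 4 without D257A mouse 2-17M, 10 without 2-21M, 5 without 2-25M, 7 without 2-27M and 5 without 2-30M, and 4 without WT mouse 1-12M, 24 without 1-13M, 4 without 2-3M, 6 without 2-32M and 8 without 3-18M. Pik3r1, Igfbp3 and Dnm3 were called whichever mouse was left out, and each of the other 8 lost its call without at least 1 mouse. Over all tested genes the median log2 difference was -0.01.

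Insulin-like growth factor signaling around Igf1r held 6 of the 11 calls, with 5 of 18 tested genes higher, 1 lower and a median log2 difference of 0.28. Igfbp3, which binds insulin-like growth factors in the circulation, rose by 1.49 (SE 0.18, limma adjusted p = 0.000621), with means of 1125 ± 249 in D257A and 402 ± 82.0 in WT mice. Downstream of the receptor, the regulatory PI3-kinase subunit Pik3r1 rose by 1.35 (SE 0.27, limma adjusted p = 0.00911) and averaged 4830 ± 1572 in D257A and 1945 ± 889 in WT mice. Calls were also made for the docking protein Irs1 at 0.80, the kinase Akt1 at 1.15 and the transcription factor Foxo1 at 1.34, and in the other direction for Igfbp6 at -0.53 (limma adjusted p from 0.0325 to 0.0441). With 1 mouse left out, Irs1 was called in 2 of 10 fits, Akt1 in 1, Foxo1 in 2 and Igfbp6 in 4. Igfbp4, which with Irs1 was among the 2 brightest genes of the list, was at 0.12 (SE 0.12) and not called.

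None of the 10 tested arrestin-domain proteins and ubiquitin ligases around Arrdc4 was called in limma, and their median was 0.18. Txnip, the thioredoxin-interacting relative of Arrdc4, was at 0.52 (SE 0.16, limma adjusted p = 0.0592) with 12657 ± 2128 in D257A and 8957 ± 2110 in WT mice, and the ligase Nedd4 was at 0.22 (SE 0.11). The largest differences of the list were those of its alpha-arrestins Arrdc3, at 0.99 (SE 0.29, limma adjusted p = 0.0507), and Arrdc2, at 0.94 (SE 0.35, limma adjusted p = 0.12), which were singled out after their values were seen. The relatives of Fam174b, Fam174a at -0.07 and Fam174c at 0.22, were not called.

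Of 13 tested genes on the list of p53 targets for Aen, 2 were called higher and 1 lower, with a median of 0.21. This list also holds the exonuclease Isg20, the neighbor of Aen on the chromosome, at 1.03 and not called. The count and the median are therefore not those of p53 targets alone. Sesn1, a stress-induced inhibitor of mTORC1 signaling, rose by 2.15 (SE 0.50, limma adjusted p = 0.0199), the receptor Eda2r rose by 0.57 (SE 0.15, limma adjusted p = 0.0329), and Phlda3, an inhibitor of Akt, fell by 0.51 (SE 0.13, limma adjusted p = 0.0281). With 1 mouse left out, Sesn1 and Phlda3 were each called in 5 of 10 fits and Eda2r in 3. Ccng1 was at 0.15 (SE 0.10).

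Of 9 tested genes of the mitochondrial 16S rRNA module to which Ngrn belongs, 0 were called in limma, and the median was 0.05. The 2 brightest, the RNA granule proteins Grsf1 and Dhx30, were at 0.00 (SE 0.12) and 0.40 (SE 0.15). The higher signal of Ngrn was thus not accompanied by calls among its partners. Likewise 0 of 10 tested NADPH enzymes and nucleotide phosphatases listed with Hddc3 were called, with a median of -0.01, malic enzyme Me1 at -0.05 (SE 0.11) and the transhydrogenase Nnt at -0.17 (SE 0.12).

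Among the relatives of Alpk3, 0 of 3 tested alpha kinases were called, Trpm7 being at 0.28 (SE 0.17) and Eef2k at 0.36 (SE 0.17). Of 8 tested M-band and titin-linked proteins 1 was called, the myomesin Myom3, which fell by 0.60 (SE 0.15, limma adjusted p = 0.0249) and was called in 5 of 10 fits with 1 mouse left out. Titin itself, Ttn, was at 0.03 (SE 0.08) and Myom2 at 0.08 (SE 0.07). Of 8 tested Homer scaffolds and partners 1 was called, the dynamin Dnm3, which rose by 1.22 (SE 0.20, limma adjusted p = 0.00275). Homer1 was at -0.03 (SE 0.17) and the ryanodine receptor Ryr1 at 0.16 (SE 0.07).

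Some markers of other cell types were called beside these genes. Of 11 tested macrophage markers 6 were called higher, and their summed signal was 10482 to 15494 in D257A mice, against 7941 to 9162 in WT mice. Of 7 fibroblast markers 3 were called lower, with sums of 20897 to 24906 in D257A mice, against 21061 to 34297 in WT mice. In a 2-sided exact permutation test on the mean log2 signal of a list, macrophage markers had p = 0.00794, the smallest that 5 mice against 5 allow, and fibroblast markers p = 0.0159, both with an adjusted p of 0.0873 over 11 lists. By the same permutation test, lymphocyte markers had p = 0.0317 (adjusted p = 0.116) and cochlear markers p = 0.0476 (adjusted p = 0.131). Both lists were at -0.37 in mean log2 signal, and the remaining lists had p of 0.143 or more. Of 7 lymphocyte markers with a probe set, 1 passed the filter on dim probe sets, as did 2 of 7 cochlear markers. Among 8 muscle fiber markers 1 was called lower, and among 5 adipocyte markers 1 was called higher. The summed signal of muscle fiber markers was 400619 to 433905 in D257A mice, against 361360 to 477944 in WT mice. The part of these cell types in the differences of the 9 genes was not tested. In whole muscle, fewer cells of a type and less RNA per cell cannot be told apart.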

How the data were processed

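Gastrocnemius RNA of 5 D257A and 5 WT mice was measured on 10 arrays of 45101 probe sets, 1 per mouse. The deposited values are linear intensity, 1 signal per probe set, and the submitters' processing notes name GCOS 1.3. No source used here gives the signal algorithm. The study's array checklist states a scaling target of 500, but the trimmed means of the deposited columns, with 2% left out at each end, were 93.4 to 106 in D257A and 94.5 to 129 in WT mice, so each array was scaled to 500 by a factor of 3.88 to 5.35. After removal of 64 AFFX controls, the 22518 probe sets whose mean log2 signal exceeded the median of all (dimmest 6.26) entered limma 3.58.1 (R 4.3.3, lmFit, then eBayes with trend, without covariates), with Benjamini-Hochberg adjustment over all of them. The number of mice limits the precision, since arrays hold no read depth.

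A platform annotation gave 1 gene symbol for 34958 probe sets, several for 932 and none for 9211, and only probe sets with 1 symbol named a gene. A gene is its brightest such probe set. Gene order and upstream sequences came from RefSeq (GRCm38.p6). The array files name no genome build, so no positions are given for probe sets.

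The 9 genes, the lists of relatives and the tests were chosen with earlier results of these data known. A list for 3110040N11Rik was dropped after RefSeq did not give it the name on which that list was built. Genes named are the 9, Polg, called genes and the 3 nearest to the threshold in the same stretch, direct neighbors, called and 2 brightest relatives per list, and the genes most like each of the 9. Alternatives were other scalings, filters, variance models and an offset, the mean over probe sets, the methods' t-test, the mice numbered 2, a block for the first digit of the mouse number, and each mouse left out in turn. The position of WT mouse 1-13M under other scalings was chosen after seeing the data. The fit was tested on simulated data. Tables and figures used Python 3.11.15 with NumPy 2.4.6, pandas 2.3.3 and matplotlib 3.10.9.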

Additional observations from a re-analysis of the deposited data

Results flagged for a closer look

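In 2 of 40 groups of 5 mice, 1 mouse stood apart from the rest by a gap that took up more than 0.71 of the range of its group, which chance gives in about 1 of 20 groups. At 1450972_at of 3110040N11Rik, WT mouse 1-13M was at 305 where the other WT mice were at 411 to 423, a gap of 0.915 of the log2 range. At 1452875_at of Hddc3, D257A mouse 2-27M was at 64.3 where the other D257A mice were at 112 to 117, a gap of 0.929 of the log2 range.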

How the results depend on the processing

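At the brightest probe set the log2 differences of the 9 genes, chosen on these same mice, kept their sign in every alternative. They ran from 3.07 to 3.46 for Hddc3, 2.08 to 2.48 for Fam174b, 1.87 to 2.14 for Arrdc4, 0.74 to 0.99 for Igf1r, 0.62 to 0.83 for Ngrn and 0.51 to 0.71 for Aen, and from -2.24 to -1.95 for Alpk3, -0.92 to -0.66 for Homer2 and -0.70 to -0.48 for 3110040N11Rik. Arrdc4, Fam174b, Hddc3 and Alpk3 were called in every alternative that tested them, whereas Igf1r was not called in 9 of 22 and 3110040N11Rik in 9 of 21. With the mean over all probe sets of a gene, 7 of the 9 were called, Igf1r being at 0.07 and Aen at 0.35. The number of the 9 that were called was 5 with a block for the first digit of the mouse number (Arrdc4, Fam174b, Aen, Hddc3 and Alpk3), 6 without scaling and 7 to 9 with 1 mouse left out. With the mice numbered 2 alone, which gave the same log2 differences as the block, all 9 were called. No paired analysis was possible because mouse numbers are not shared between the genotypes. Genes called in the stretch from Igf1r to 3110040N11Rik, 9 in all mice, were 16 with array weights, 5 with the block and 7 to 15 with 1 mouse left out, the highest when WT mouse 1-13M was omitted. Calls over all probe sets, 1662 in all, were 3968 with array weights, 562 with the block, 994 by the methods' t-test on linear signals, 1033 by that test on log2 signals and 890 to 3428 with 1 mouse left out (the lowest when WT mouse 1-12M and the highest when WT mouse 1-13M was omitted). The share of calls that were higher in D257A mice, 49.3%, was 79.3% with arrays centered on their median, 29.4% without scaling and 47.0% to 54.9% with 1 mouse left out. The median log2 difference of all tested probe sets, -0.01, was 0.12 with median centering and -0.08 without scaling. The 11 calls among relatives became 23 with array weights, 18 with median centering, 5 with the block, 7 without a filter on dim probe sets, 5 without the variance trend, 3 by either t-test, 6 without scaling and 4 to 24 with 1 mouse left out. Polg, at 0.09, ran from -0.03 to 0.19 with 1 mouse left out and was at -0.03 without WT mouse 3-18M. The median position of WT mouse 1-13M, 0.447, was 0.314 to 0.446 under settings chosen after seeing the data. The causes of these changes were not tested. In simulated data of 22518 probe sets the fit recovered 70% of log2 changes of 1 and 10% of those of 0.5. The simulation changed far fewer probe sets than were called in the data, so these shares need not hold for the real fit. A neighbor that was not called may still differ by such a size.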
